A study of Mus musculus with 18 samples.

Results

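Wnt/beta-catenin feedback target genes are genes that beta-catenin switches on and many of which act back on the same pathway. The 10 genes examined were Axin2, Lgr5, Tbx3, Nkd1, Rnf43, Znrf3, Sp5, Notum, Tcf7 and Lef1, taken by name out of 54838 genes in the RNA-seq table, and all 10 were found. The 18 samples formed 6 groups of 3 from C57BL/6 mice with a labelled age of 36 weeks. Wild type (WT) mice and mice with a global knockout of the miR-181ab1 cluster, that is Mir181a-1 and Mir181b-1 in every tissue (GKO), each gave normal livers without treatment. The same 2 genotypes gave tumours and the liver beside them (non-tumours) after 1 intraperitoneal dose of 25 mg/kg diethylnitrosamine (DEN), a liver carcinogen, on postnatal day 12. Tumours and non-tumours were pieces of whole tissue, and the labels do not say which tumour came from the same mouse as which non-tumour, nor that each sample came from a separate mouse, so the p-values measure the spread between these samples. Levels are in TPM, which corrects read numbers for gene length and gives each sample an equal sum. Depth ran from 11925055 to 20751348 reads assigned to genes, with a median of 16973801.

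Wnt proteins bind Frizzled receptors with the co-receptors LRP5 and LRP6, which stops the destruction of beta-catenin, and beta-catenin then works in the nucleus with TCF and LEF proteins. In the liver this pathway is active in hepatocytes around the central vein, where endothelial cells make Wnt ligands and R-spondin 3, and it sets the genes of that zone, such as those for glutamine synthesis. In this pathway Notum removes the lipid that Wnt proteins need, Rnf43 and Znrf3 are ubiquitin ligases that take Frizzled receptors off the membrane, and Lgr5 is a receptor for R-spondins, which hold these ligases back. Axin2 is a scaffold of the complex that marks beta-catenin for destruction, Nkd1 binds Dishevelled and dampens the signal, Sp5 and Tbx3 are transcription factors, and Tcf7 and Lef1 are DNA-binding partners of beta-catenin.

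On mm10, 5 of the 10 genes lay on chromosome 11: Axin2 at chr11:108920349-108950783, Rnf43 at chr11:87662722-87735539, Znrf3 at chr11:5276324-5444847, Notum at chr11:120653788-120661175 and Tcf7 at chr11:52252371-52283014. The others were Sp5 at chr2:70474923-70477729, Lef1 at chr3:131110471-131224356, Tbx3 at chr5:119670669-119684724, Nkd1 at chr8:88521354-88594884 and Lgr5 at chr10:115450311-115587780. Promoter sequence from RefSeq (GRCm38.p6) was at hand for 6 of the 10 genes, as 11 windows of 250 bases before a transcription start. The letters CTTTGAT, the core that TCF and LEF proteins bind, were searched on both strands. They were present in 3.21% of all 32851 windows and in 1 of the 11 windows of these 6 genes, that of Sp5. The windows of Axin2, Nkd1, Rnf43, Tcf7 and Lef1 held no match to these letters. The Sp5 window is shown because it is the one with a match, which starts 104 bases before the transcription start and is in capitals (chr2:70474673-70474922, plus strand).
Sp5 promoter: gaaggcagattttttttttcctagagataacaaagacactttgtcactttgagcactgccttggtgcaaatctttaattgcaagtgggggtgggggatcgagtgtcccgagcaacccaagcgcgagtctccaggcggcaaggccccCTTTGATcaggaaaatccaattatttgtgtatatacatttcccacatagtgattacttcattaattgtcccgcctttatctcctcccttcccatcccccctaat

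The GKO mice lack the genes of a pair of miRNAs, shown here because the genotype comparisons turn on them. Both mature miRNAs (RefSeq, GRCm38.p6) carry the same seed, bases 2 to 8, in capitals.
miR-181a-5p: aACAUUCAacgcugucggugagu
miR-181b-5p: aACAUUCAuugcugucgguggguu
The DNA letters that pair with this seed, TGAATGT, were looked for in the longest annotated 3' UTR of each gene in GENCODE mouse release 21. They occurred in 16.3% of 20968 genes and in 0 of the 10 feedback target genes, whose 3' UTRs were between 432 and 3400 bases long. The precursor genes themselves gave no check of the genotype labels, since Mir181b-1 had 0 reads in every sample and Mir181a-1 had 1 read in GKO tumour 3 and 0 in the other samples, which include all 9 WT samples.

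Most of these genes were lower in the tumours. Axin2, Tbx3, Nkd1, Sp5 and Notum fell in tumours against non-tumours when both genotypes were fitted together, by between 1.22 and 2.87 on the log2(TPM + 1) scale. That made 5 of 8 members tested lower and 0 higher, beside 7.87% of 14106 genes lower and 12.2% higher. Rnf43, Znrf3 and Tcf7 did not pass the test, and Lgr5 and Lef1 were below the filter of a mean of 0.5 TPM. Axin2 passed this filter only through the non-tumours (tumour mean 0.358 TPM), so the shares of all genes are no yardstick for it. Taken by level, 6 members (Axin2, Lgr5, Tbx3, Nkd1, Sp5 and Notum) had all 6 tumours below all 12 livers without tumour, normal livers included, as did 1.95% of 13914 genes. Lgr5 and Axin2 reached the filter of this count, 0.5 TPM over all 18 samples, only through the livers. Their tumour means were 0.0664 and 0.358 TPM, so that share is no yardstick for them. In bulk tissue, fewer cells of a type and less RNA per cell cannot be told apart. Calls rest on limma with Benjamini-Hochberg adjustment over all genes tested, at an adjusted p under 0.05.

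**Figure D1:**
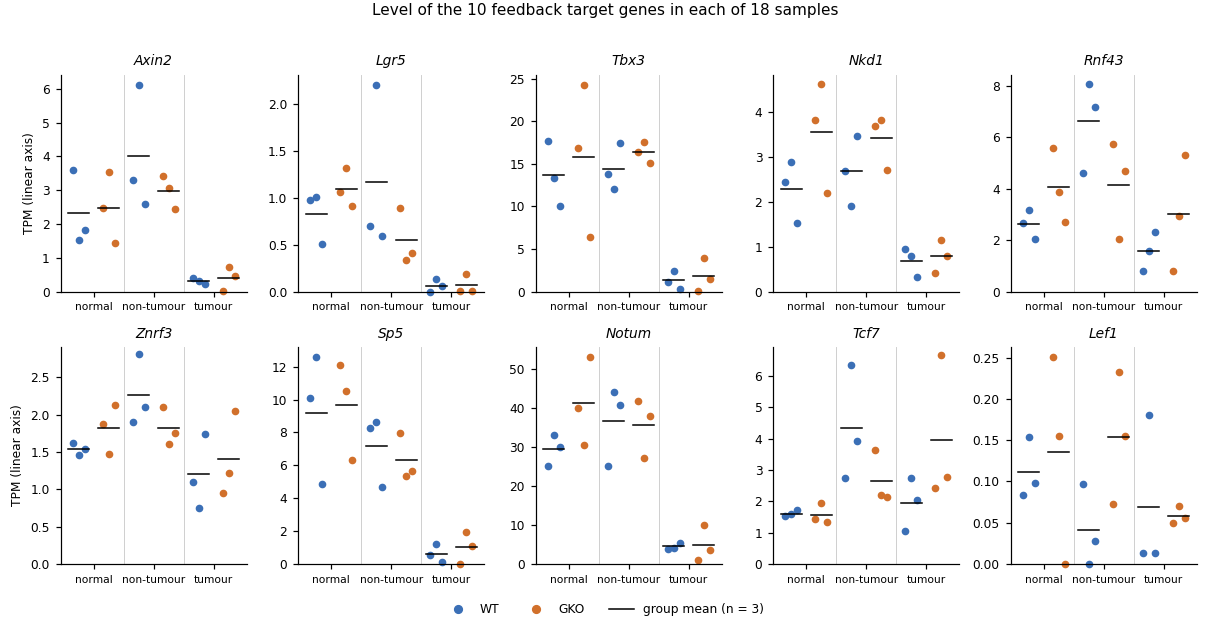
Level in TPM (linear axes, 1 panel per gene) of the 10 feedback target genes in each of the 18 samples, by tissue, with WT in blue, GKO in orange and a line at each group mean (n = 3). In the panels of Axin2, Lgr5, Tbx3, Nkd1, Sp5 and Notum all 6 tumours lie below all 12 livers, while in those of Rnf43, Znrf3, Tcf7 and Lef1 they overlap.

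Notum, the secreted enzyme that inactivates Wnt proteins, was the most abundant member in the livers and gave 46.4% of the summed level of the 10 genes over all samples. Its level in WT non-tumours was 25.2, 44.1 and 40.7 TPM and in GKO non-tumours 41.7, 27.0 and 37.9 TPM. In WT tumours it was 3.92, 4.10 and 5.41 TPM and in GKO tumours 0.899, 9.90 and 3.59 TPM. The groups did not overlap, and the highest tumour, GKO tumour 2, was still well below the lowest liver, WT normal liver 1 at 25.0 TPM. The mean was 36.1 ± 8.03 TPM (SD, n = 6) in non-tumours and 4.64 ± 2.97 TPM in tumours, a ratio of 7.79. The log2 fold change was -2.87 ± 0.34 (SE; limma, adjusted p = 0.000214, lower in 6 of 6 tumours). Fitted by genotype it was -2.75 ± 0.27 in WT and -2.98 ± 0.58 in GKO. Normal livers ranged from 25.0 to 53.0 TPM.

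Among the membrane proteins, Lgr5 was scarce throughout. It had 0.700, 2.21 and 0.594 TPM in WT non-tumours and 0.896, 0.336 and 0.411 TPM in GKO non-tumours. In tumours it was at 0, 0.131 and 0.0552 TPM in WT and 0.0105, 0.191 and 0.0119 TPM in GKO. These tumour values stood for 0 to 16 reads, against 27 to 185 reads in non-tumours, so the level in WT tumour 1 and in GKO tumours 1 and 3 was at or below a floor of 3 reads. In WT, where Lgr5 passed the filter, the log2 fold change was -0.95 ± 0.31 (limma, adjusted p = 0.157), and over both genotypes the difference of mean log2(TPM + 1) was -0.74 (exact permutation test, two-sided, tissue labels exchanged within genotype, p = 0.005, the smallest that 400 arrangements can give).

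The ligases that remove Frizzled receptors were less uniform. Rnf43 had 4.62, 8.07 and 7.16 TPM in WT non-tumours and 0.793, 1.60 and 2.30 TPM in WT tumours, which did not overlap. In GKO its levels overlapped, with 5.73, 2.06 and 4.69 TPM in non-tumours and 0.792, 2.93 and 5.29 TPM in tumours. Rnf43 fell in WT by 1.59 ± 0.30 on the log2 scale (limma, adjusted p = 0.0369), but the call was lost without any 1 of WT non-tumours 1, 2 or 3 or WT tumours 1 or 2 (adjusted p between 0.0697 and 0.140 with limma). The log2 fold change was -0.47 ± 0.49 in GKO (limma, adjusted p = 0.535) and -1.03 ± 0.34 over both genotypes (limma, adjusted p = 0.0530). Znrf3 had 1.90, 2.81 and 2.10 TPM in WT non-tumours and 2.10, 1.60 and 1.76 TPM in GKO non-tumours. Its tumour levels were 1.10, 0.756 and 1.74 TPM in WT and 0.946, 1.22 and 2.05 TPM in GKO, and the log2 fold change over both genotypes was -0.42 ± 0.16 (limma, adjusted p = 0.0902). For both ligases the range of tumour levels reached into that of the livers.

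The cytoplasmic members both fell. Axin2, often used as a readout of beta-catenin activity, had 3.29, 6.12 and 2.60 TPM in WT non-tumours and 3.43, 3.06 and 2.46 TPM in GKO non-tumours. Tumours had 0.396, 0.310 and 0.226 TPM (WT) and 0.0197, 0.733 and 0.465 TPM in GKO, that is between 1 and 33 reads, against 109 to 275 reads in non-tumours. All 6 tumours lay below the lowest liver, GKO normal liver 3 at 1.43 TPM. The mean of Axin2 went from 3.49 ± 1.34 TPM (SD, n = 6) in non-tumours to 0.358 ± 0.240 TPM in tumours, a ratio of 9.76. On the log2(TPM + 1) scale, which understates the change of genes this low, that was -1.70 ± 0.19 (limma, adjusted p = 0.000161). Nkd1 had 2.6968, 1.91 and 3.46 TPM in WT non-tumours and 3.70, 3.84 and 2.72 TPM in GKO non-tumours. It had 0.955, 0.801 and 0.323 TPM in the WT tumours and 0.427, 1.15 and 0.802 TPM in the GKO tumours, all below the livers. Over both genotypes Nkd1 fell by 1.22 ± 0.17 on the log2 scale (limma, adjusted p = 0.000535), a ratio of means of 4.11.

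Sp5, a transcription factor that competes at promoters bound by other SP proteins, had 8.29, 8.63 and 4.67 TPM in WT non-tumours and 7.97, 5.35 and 5.67 TPM in GKO non-tumours. Among tumours it was at 0.518, 1.22 and 0.108 TPM in WT and 0, 1.92 and 1.10 TPM in GKO. GKO tumour 1 had 0 reads of Sp5, which allows up to 3 reads, while the non-tumours had 82 to 148. Sp5 fell by 2.17 ± 0.27 on the log2 scale (limma, adjusted p = 0.000302), with a ratio of means of 8.33. Tbx3, a repressor of the T-box family, had 13.8, 12.1 and 17.4 TPM in WT non-tumours and 16.4, 17.6 and 15.1 TPM in GKO non-tumours. Its tumour levels were 1.13, 2.44 and 0.359 TPM in WT and 0.114, 3.89 and 1.54 TPM in GKO, with no overlap with any liver. Tbx3 fell by 2.84 ± 0.32 on the log2 scale (limma, adjusted p = 0.000149), a ratio of means of 9.75.

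Neither of the members that are themselves DNA-binding partners of beta-catenin was called in tumours against non-tumours. Tcf7 had 2.74, 6.34 and 3.91 TPM in WT non-tumours and 1.06, 2.74 and 2.03 TPM in WT tumours. In GKO it had 3.65, 2.19 and 2.13 TPM in non-tumours and 2.43, 6.66 and 2.78 TPM in tumours. The highest Tcf7 level of all 18 samples was thus in GKO tumour 2, and the next in WT non-tumour 2. Its log2 fold change was -0.84 ± 0.33 in WT (limma, adjusted p = 0.228) and 0.37 ± 0.34 in GKO (limma, adjusted p = 0.485). Tcf7 is also a gene of T cells. The summed level of 12 T-cell markers, led by Trac, was 19.5 TPM in WT tumour 2 and 16.6 TPM in WT non-tumour 1, the highest 2 samples, and 6.72 TPM in GKO tumour 2. No T-cell marker was called in tumours against non-tumours, with 0 of 7 tested passing, and none was at 0 in all samples. The part of T cells in the Tcf7 level was not tested. Lef1 was near the floor everywhere, with 0 to 0.251 TPM and 0 to 18 reads a sample, and the exact permutation test over both genotypes gave p = 0.39.

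For 4 of the 10 genes some exonic bases also belong to a gene on the opposite strand, and the sources used here do not say whether reads were counted by strand. These were 708 bases shared with Notumos and 210 with Myadml2os of 2408 in Notum, 115 of 6624 in Tbx3 with Tbx3os1, 209 of 5506 in Axin2 with Gm11670 and 1208 of 8788 in Lef1 with Gm43352. Notumos had a mean of 3.70 TPM in non-tumours and 0.476 TPM in tumours, and Tbx3os1 6.85 and 0.582 TPM, both in the direction of their partner genes. Their part in the levels of Notum and Tbx3 was not tested.

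Each genotype alone also gave 5 members lower and 0 higher. In WT these were Axin2, Tbx3, Rnf43, Sp5 and Notum of 9 tested, beside 2.07% of 14003 genes lower and 2.16% higher. In GKO they were Axin2, Tbx3, Nkd1, Sp5 and Notum of 8 tested, beside 3.97% of 14092 genes lower and 7.75% higher. At an unadjusted p under 0.05 with limma there were 9 of 9 members in WT, beside 19.9% of all genes. The same threshold gave 5 of 8 in GKO, beside 31.7%, and 7 of 8 over both genotypes, beside 35.0%. Axin2 in each of these fits, and Lgr5 in WT, passed the filter only through the non-tumours. The shares of all genes are no yardstick for them. The median log2 fold change of all genes tested was -0.02 in WT, 0.20 in GKO and 0.08 over both. Relative to that median the GKO fold changes were -1.73 for Axin2, -3.05 for Tbx3, -1.51 for Nkd1, -2.18 for Sp5 and -3.18 for Notum. With 3 samples a side the number of calls moved with single samples. In WT it dropped to 1 when WT non-tumour 1 was left out, to 2 without WT tumour 1 and to 3 after removal of WT tumour 2, and in GKO it was 0 without GKO non-tumour 3, 1 without GKO non-tumour 2 and 2 without GKO tumour 3. The calls over all genes dropped in the same fits, in WT from 592 to 198, 182 and 163, and in GKO from 1652 to 229, 619 and 747. Over both genotypes 5 or more members were called without any 1 sample, beside 1867 to 3797 genes.

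**Figure D2:**
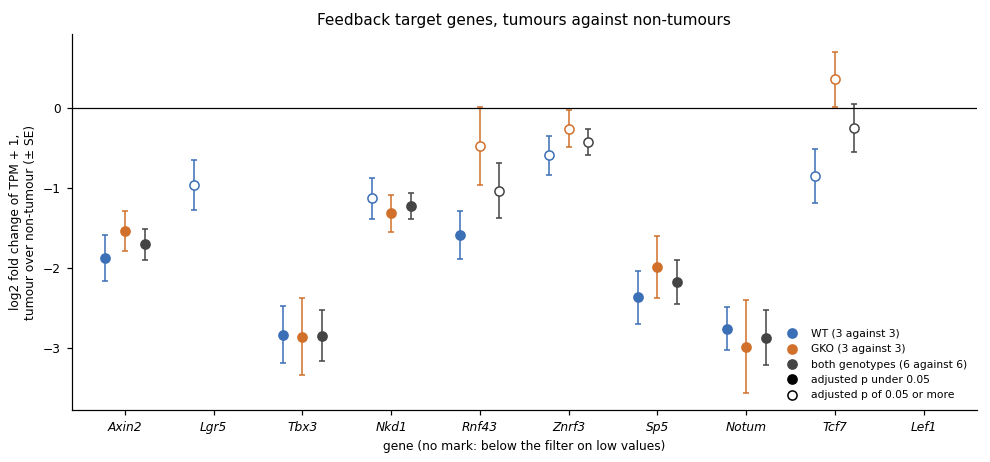
Log2 fold change of TPM + 1 (vertical axis, points with SE bars) of each feedback target gene in tumours against non-tumours, in WT (blue), GKO (orange) and both genotypes (grey), filled where the limma adjusted p is under 0.05. Notum and Tbx3 lie lowest, between -2.75 and -2.98, and the Tcf7 point is the single one above 0, at 0.37 in GKO.

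Tumours of a group differed from each other. GKO tumour 1 had the lowest tumour level for 5 of the 10 members and GKO tumour 2 the highest for 7. The summed level of the 10 genes was 9.89, 14.3 and 12.6 TPM in the WT tumours and 5.69, 28.7 and 17.7 TPM in the GKO tumours, against 54.2 to 92.3 TPM in the livers. GKO tumour 1 was the deepest library, with 20751348 reads. Without GKO tumour 1 the log2 fold change over both genotypes was -1.63 for Axin2, -2.57 for Notum and -2.59 for Tbx3. WT tumours 1 and 2 were more like each other (r = 0.982 across 11897 genes, on log2(TPM + 1)) than either was like WT tumour 3 (0.910 and 0.911), and WT non-tumour 2 was less like the other 2 WT non-tumours (0.920 and 0.924) than they were to each other (0.967). With WT tumours 1 and 2 averaged as 1 sample, 3 members (Tbx3, Sp5 and Notum) were called in WT, beside 185 of 13947 genes, and 5 over both genotypes, beside 2271 genes. WT non-tumour 2 held the highest liver level of Axin2, Lgr5, Rnf43, Znrf3 and Tcf7, and without it Axin2 fell by 1.56 over both genotypes.

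The knockout was compared with WT in each tissue. No member was called in GKO against WT tumours (0 of 7 tested, beside 0.0215% of 13964 genes), GKO against WT non-tumours (0 of 9, beside 0% of 13768) or GKO against WT normal livers (0 of 9, beside 0% of 13099), and voom on recovered reads also called 0. The 3 genes called between GKO and WT tumours became 0 with a replicate block, 107 with all 18 samples in one fit and 147 without WT tumour 3, with 0 members among them each time. At an unadjusted p under 0.05 with limma there were 0 members in each, beside 8.87%, 5.8% and 3.96% of all genes. In tumours the log2 differences were 0.70 ± 0.38 for Tcf7, 0.51 ± 0.48 for Rnf43, -0.25 ± 0.58 for Notum, 0.24 ± 0.45 for Sp5, 0.16 ± 0.58 for Tbx3, 0.13 ± 0.27 for Znrf3 and 0.08 ± 0.26 for Nkd1 (SE, n = 3 a group). With these errors, differences of this size were not detectable. Axin2, Lgr5 and Lef1 were below the filter in the tumours, so they were not tested between GKO and WT tumours. The difference of the tumour effect between genotypes passed the test for 0 of 8 members with limma and 0 with voom, beside 0.0142% of 14106 genes, that is 2 genes, which became 91 without WT tumour 3, 17 when GKO tumour 2 was left out and 13 when all 18 samples were fitted together. At an unadjusted p under 0.05 there was 1 member, Tcf7, beside 10.5% of all genes. Its value was 1.21 ± 0.51 for Tcf7 (limma, adjusted p = 0.473), 1.12 ± 0.63 for Rnf43 (limma, adjusted p = 0.506) and -0.19 ± 0.34 for Nkd1 (limma, adjusted p = 0.832). So Rnf43, called in WT alone, and Nkd1, called in GKO alone, were not shown to differ between genotypes. The median of this difference over all genes was 0.23.

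Without tumour, DEN-treated livers were compared with normal livers. In WT 0 of 9 members were called, beside 0.00744% of 13440 genes, and in GKO 0 of 9, beside 0% of 13530; voom on recovered reads also called 0 in each. At an unadjusted p under 0.05 with limma there were 2 of 9 members in WT, Rnf43 and Tcf7, beside 24.4% of all genes, and 0 of 9 in GKO, beside 5.2%. The share of members in WT was near that of all genes. Rnf43 had 2.65, 3.16 and 2.03 TPM in WT normal livers, all below the WT non-tumours, a log2 difference of 1.06 ± 0.24 (limma, adjusted p = 0.118). Tcf7 had 1.51, 1.59 and 1.72 TPM in WT normal livers, also below all WT non-tumours, a log2 difference of 0.98 ± 0.26 (limma, adjusted p = 0.128). All genes tested in WT had a median difference of 0.32 here. Axin2 in normal livers was between 1.43 and 3.61 TPM, Sp5 between 4.88 and 12.6 TPM, Tbx3 between 6.42 and 24.3 TPM, Nkd1 between 1.53 and 4.63 TPM and Lgr5 between 0.504 and 1.32 TPM, each range overlapping that of the non-tumours.

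Further genes of the pathway were taken from 9 lists with 94 genes. In tumours against non-tumours over both genotypes 55 of them were tested, of which 15 fell and 3 rose, beside 7.87% of all genes lower and 12.2% higher. Of the 15 that fell, 9 were in the list of hepatocyte targets. Among the ligands, 2 of 4 tested fell and 0 rose. Wnt9b was below the filter and was not tested, with a mean of 0.454 TPM in non-tumours and 0.373 TPM in tumours. Wnt2, made by endothelial cells of the central vein, had 1.40, 0.434 and 1.43 TPM in WT non-tumours and 2.04, 2.49 and 2.04 TPM in GKO non-tumours. In tumours Wnt2 had 0.644, 0.540 and 0.301 TPM in WT and 0.0480, 1.03 and 0.486 TPM in GKO, a log2 fold change of -0.78 ± 0.21 (limma, adjusted p = 0.0218). WT non-tumour 2, at 0.434 TPM, overlapped the tumours. Wnt4 fell by 1.02 ± 0.30 (limma, adjusted p = 0.0308), from a mean of 1.99 TPM to 0.439 TPM. Wnt4 passed the filter of a mean of 0.5 TPM only through the non-tumours. Its levels overlapped, with WT non-tumour 2 at 0.234 TPM among the tumours. GKO tumour 2, at 1.87 TPM, lay above WT non-tumour 1 (1.19 TPM) and GKO non-tumour 3 (1.60 TPM). Rspo3, the R-spondin of the central vein, had 4.33, 0.595 and 2.63 TPM in WT non-tumours and 5.21, 7.06 and 3.61 TPM in GKO non-tumours. Among WT tumours it had 0.352, 0.985 and 0.0733 TPM, and among GKO tumours 0.280, 1.46 and 0.394 TPM. Rspo3 fell by 1.52 ± 0.31 (limma, adjusted p = 0.00617). For Rspo3 too WT non-tumour 2 lay among the tumours.

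Some ligand and secretion genes were high in single tumours. Wnt10a had 148 and 142 TPM in WT tumours 1 and 2, 0 in WT tumour 3 and at most 0.201 TPM in the other 15 samples, so the log2 fold change in WT of 4.77 ± 1.83 did not pass the test (limma, adjusted p = 0.218). Wls, which carries Wnt proteins to the surface, had 2.90 and 3.23 TPM in the same 2 tumours and 0.438 TPM in WT tumour 3, and it also had 2.18 TPM in GKO tumour 2, against 0.435 to 0.944 TPM in the livers. Porcn, the enzyme that adds the lipid to Wnt proteins, had 25.9 TPM in GKO tumour 1 and 0.121 to 4.34 TPM in the other samples. GKO tumour 1 also had the lowest summed level of the feedback targets, and a link between them was not tested. Wnt5b, a ligand known mostly for signalling without beta-catenin, fell in WT by 1.43 ± 0.30 (limma, adjusted p = 0.0485) and had 5.95, 3.41 and 7.39 TPM in the GKO tumours against 4.96, 2.26 and 7.34 TPM in GKO non-tumours. For Wnt5b the tumour effect was not shown to differ between genotypes (difference of 1.66 ± 0.53, limma, adjusted p = 0.417).

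**Figure D3:**
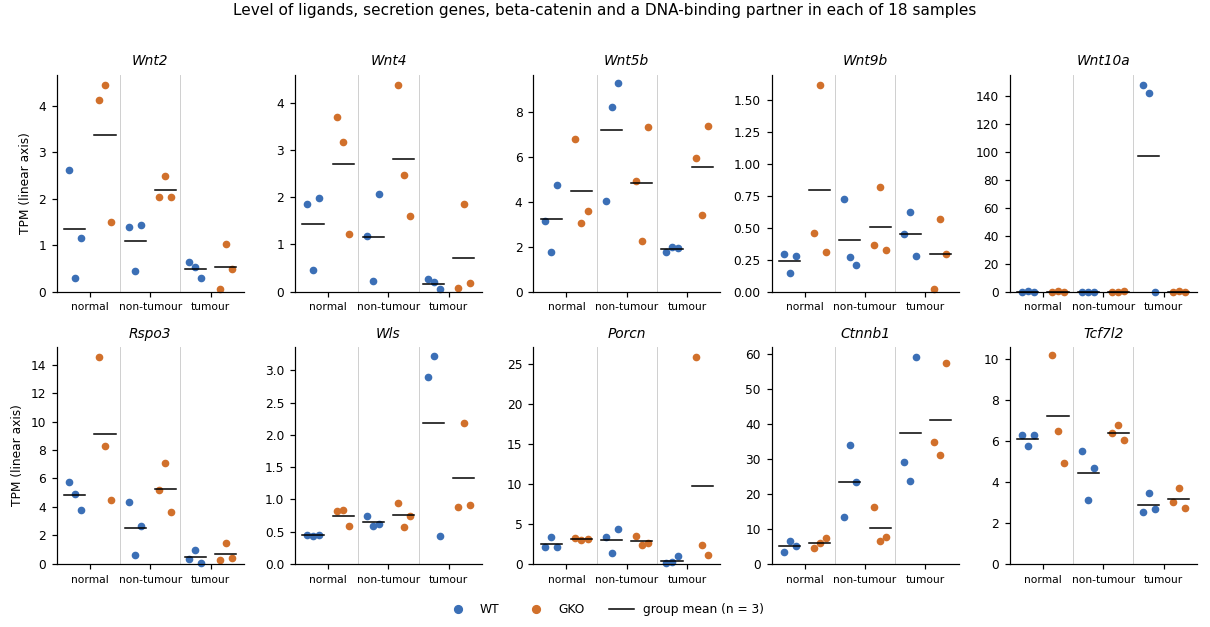
Level in TPM (linear axes, 1 panel per gene) of 5 Wnt ligands, Rspo3, the secretion genes Wls and Porcn, beta-catenin (Ctnnb1) and Tcf7l2 in each of the 18 samples, with WT in blue, GKO in orange and a line at each group mean (n = 3). Wnt10a is high in WT tumours 1 and 2 (148 and 142 TPM) and Porcn in GKO tumour 1 (25.9 TPM), while Rspo3 stays at or below 1.46 TPM in all 6 tumours.

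Of 8 receptors tested 1 rose and 0 fell over both genotypes, a share near the 12.2% of all genes that were called higher. This was Fzd5, a Frizzled receptor, by 0.58 ± 0.14 (limma, adjusted p = 0.0126), from a mean of 1.71 to 3.04 TPM. Fzd7 fell in WT by 1.42 ± 0.26 (limma, adjusted p = 0.0345), with 2.22, 2.47 and 2.85 TPM in WT tumours, and GKO tumours had 13.6, 3.72 and 8.52 TPM. The difference of the tumour effect between genotypes did not pass the test for Fzd7 (1.44 ± 0.51, limma, adjusted p = 0.445). Ctnnb1, the gene of beta-catenin itself, was the 1 of 13 cytoplasmic transducers that was called. It rose by 1.29 ± 0.36 over both genotypes (limma, adjusted p = 0.0250), with 29.2, 23.8 and 59.2 TPM in the WT tumours and 34.9, 31.2 and 57.3 TPM in the GKO tumours. WT non-tumours had 13.3, 33.9 and 23.3 TPM and GKO non-tumours 16.4, 6.61 and 7.81 TPM, against 3.32 to 7.54 TPM in normal livers. WT non-tumour 2 lay within the range of the tumours and the other 5 non-tumours below it. Among 10 nuclear partners tested 3 fell, beside 7.87% of all genes. These were Tcf7l2, the TCF protein of hepatocytes (by 0.66 ± 0.15, limma, adjusted p = 0.0103), Bcl9l, a co-activator of beta-catenin (by 1.05 ± 0.21, limma, adjusted p = 0.00501), and Tle2, a co-repressor (by 1.30 ± 0.30, limma, adjusted p = 0.0112). Of 11 secreted inhibitors 1, Dkk3, was above the filter, and it did not pass the test.

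Most targets of beta-catenin known from hepatocytes also fell in tumours against non-tumours. Over both genotypes 9 of 10 fell and 0 rose, beside 7.87% of all genes lower and 12.2% higher. Their median log2 fold change was -3.09, against 0.08 for all genes. Cyp2e1, a cytochrome P450 of pericentral hepatocytes, went from 6200, 8049 and 8350 TPM in WT non-tumours and 9357, 3056 and 6045 TPM in GKO non-tumours to 259, 324 and 134 TPM (WT tumours) and 18.8, 1446 and 405 TPM (GKO tumours). It fell by 4.84 ± 0.79 (limma, adjusted p = 0.00173), with no overlap. Cyp1a2 fell by 4.93 ± 0.68, and the log2 fold changes of Oat, an aminotransferase of ornithine, Glul, glutamine synthetase, and Slc1a2, a glutamate transporter, were -4.56 ± 0.75, -3.55 ± 0.69 and -3.07 ± 0.57 (limma, adjusted p between 0.000593 and 0.00465). Lect2, Avpr1a, Tnfrsf19 and Rhbg had log2 fold changes of -3.11 ± 0.63, -2.22 ± 0.42, -1.09 ± 0.34 and -0.88 ± 0.23 (limma, adjusted p between 0.00357 and 0.0422). Slc13a3 was the member not called, at -0.84 ± 0.55 (limma, adjusted p = 0.302). WT non-tumour 2 stood apart from the other livers. Its Glul, Slc1a2 and Avpr1a, at 159, 1.37 and 3.44 TPM, were the lowest of the livers. They lay below GKO tumour 2, at 209, 5.48 and 3.85 TPM. The Slc13a3 level of WT non-tumour 2 was also the lowest. Its Cyp1a2, Lect2 and Tnfrsf19, like its Axin2 and Lgr5, were the highest of the livers. For 4 of the 10, Oat, Cyp2e1, Cyp1a2 and Lect2, all 6 tumours lay below all 12 livers, as for 1.95% of 13914 genes. GKO tumour 1 had the lowest and GKO tumour 2 the highest summed level among tumours here as well, with 36.3 and 2007 TPM, against 568 TPM in GKO tumour 3, 567, 597 and 200 TPM in the WT tumours and 5178 to 12265 TPM in livers.

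**Figure D4:**
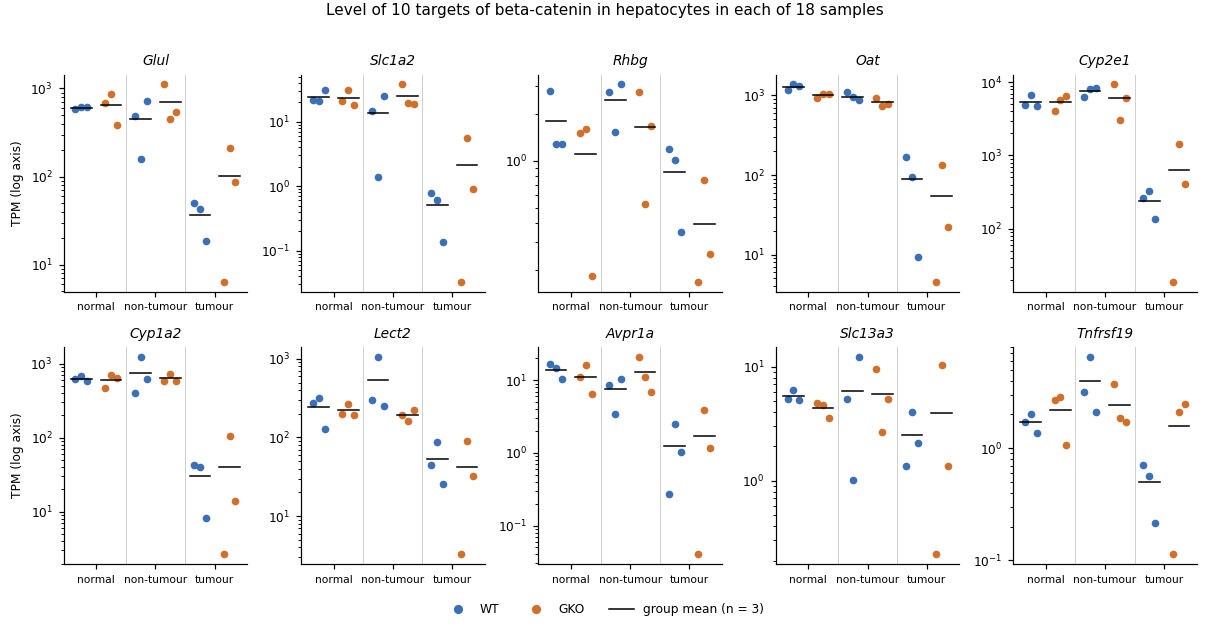
Level in TPM (log axes, 1 panel per gene) of 10 targets of beta-catenin known from hepatocytes in each of the 18 samples, with WT in blue, GKO in orange and a line at each group mean (n = 3). GKO tumour 1 is the lowest of the 6 tumours in all 10 panels, and for Oat, Cyp2e1, Cyp1a2 and Lect2 all 6 tumours lie below all 12 livers.

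Of targets known mainly from other tissues, 6 were tested over both genotypes. Of these 1 rose, beside 12.2% of all genes, 0 fell, and the median log2 fold change was 0.51. Ccnd1, the gene of cyclin D1, rose by 2.04 ± 0.55 (limma, adjusted p = 0.0225), with 13.4, 14.8 and 15.9 TPM in the WT tumours and 22.4, 11.8 and 25.9 TPM in the GKO tumours. Non-tumours had 1.11 to 3.60 TPM apart from WT non-tumour 2, which had 31.9 TPM. Prox1, Myc and Sox9, the other abundant genes of this list, did not pass the test.

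Markers of the tissue and of other cell types gave the following beside these results. Their calls over both genotypes stand beside 12.2% of all genes called higher and 7.87% lower. Hepatocyte markers, led by Alb (49.9% of the sum), added up to 63676 to 96078 TPM in livers and 174031 to 210034 TPM in tumours. Of the 10 hepatocyte markers Alb and Apoa1 rose (by 1.70 ± 0.19 and 1.34 ± 0.20) and 0 fell over both genotypes, and the other 8 did not pass the test. Ttr, Serpina1c, Asgr1 and Cps1 had a lower mean in tumours than in non-tumours, with 11592 against 14653 TPM for Ttr and 731 against 1038 TPM for Asgr1. Since TPM has a fixed total, a higher share of these transcripts lowers the rest. With each sample centred on its median gene, 7 members were called over both genotypes, Rnf43 and Znrf3 in addition, beside 3099 genes in place of 2829, and the fold changes of Axin2 and Notum were -1.83 and -2.99. Of 12 endothelial markers, led by Clec4g, 6 rose and 0 fell, with Pecam1 and Cdh5, which define these cells, among those that rose (by 1.29 ± 0.21 and 1.30 ± 0.22). Clec4g, Stab2 and Tek did not pass the test and had lower means in tumours than in non-tumours, with 14.9 against 27.0 TPM for Clec4g. The sum of all 12 endothelial markers was 108 to 158 TPM in tumours and 82.8 to 116 TPM in non-tumours. Of 10 macrophage markers, led by Lyz2, 5 fell, among them Clec4f, the marker of Kupffer cells. Cd163, which also fell, passed the filter only through the non-tumours. Of 11 markers of fibroblasts and stellate cells tested 4 rose, Col1a1, Col1a2, Col3a1 and Acta2, and Dcn and Lrat fell. Of 4 B-cell markers and 5 cholangiocyte markers tested 0 were called, and the cholangiocyte sum, 86.8% of it Spp1, was 971 and 565 TPM in the GKO tumours 2 and 3 against 32.6 to 102 TPM elsewhere. In none of these lists was a marker at 0 in every sample. The part of these cell types in the levels of the feedback targets was not tested.

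**Figure D5:**
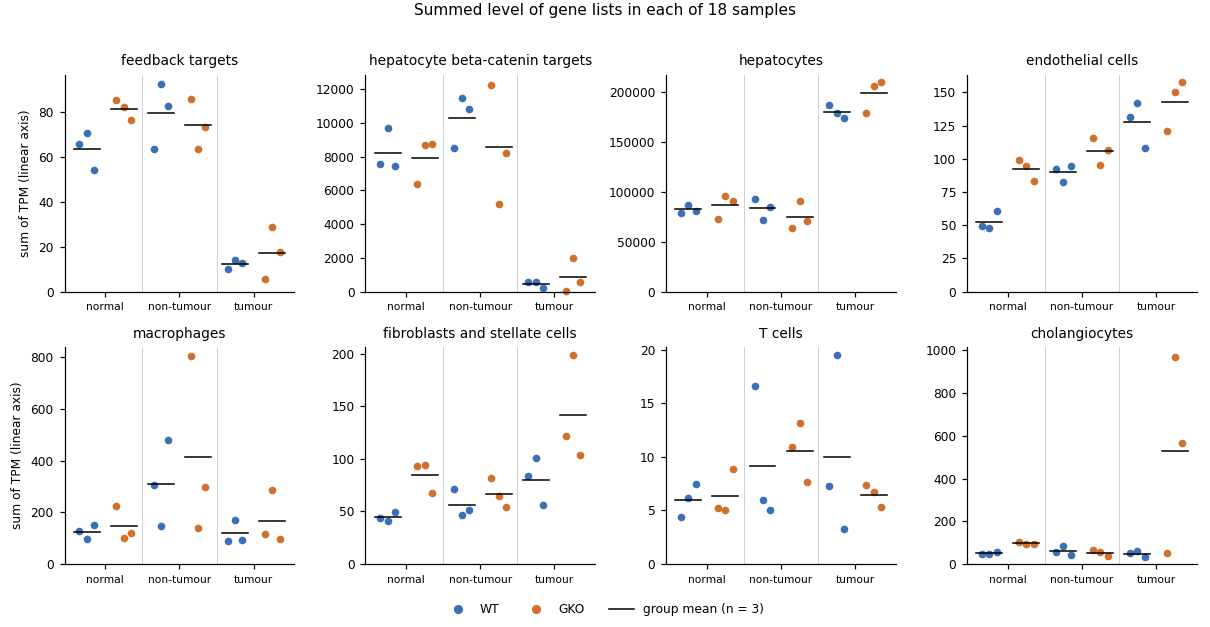
Summed level in TPM (linear axes) of the 10 feedback targets, the 10 hepatocyte targets of beta-catenin and the markers of 6 cell types in each of the 18 samples, with WT in blue, GKO in orange and a line at each group mean (n = 3). Feedback targets are at 5.69 to 28.7 TPM in tumours and 54.2 to 92.3 TPM in livers, whereas the sum of the hepatocyte markers, carried by Alb and Apoa1, is higher in the tumours.

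The genes most like the feedback targets were sought among 11889 other genes whose mean reached 1 TPM, by Pearson's r over the 18 samples on log2(TPM + 1). Closest to Axin2 were Rgn (r = 0.931), Pdilt (0.929), Rnase4 (0.928), Slco1b2 (0.922) and Olig1 (0.921). Closest to the mean of the members with at least 0.5 TPM were Slco1b2 (0.972), Pdilt (0.965), Hpgd (0.958), Fam107b (0.954) and Cib2 (0.952). As tumours and livers form separate clusters, r was also taken within each, and Slco1b2, a transporter of bile acids in hepatocytes, kept 0.952 over the 12 livers and 0.876 over the 6 tumours to that mean. Rgn had 0.724 and 0.430 with Axin2. Slco1b2 had a mean of 18.5 TPM in tumours and 196.6 TPM in livers, and Rgn 94.3 and 1181 TPM. These are descriptions of 18 samples that share the same groups.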

How the data were processed

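RNA-seq of 18 samples was used, in 6 groups of 3 that the labels define by genotype and tissue. STAR 2.7.3a on mm10 and featureCounts 2.0.0 are named for alignment and counting, and the authors deposited TPM, the unit used here. The gene annotation and the TPM calculation are not given in the sources used here. By Ensembl identifier 54809 of 54838 genes were found in GENCODE mouse release 21. Multiplying TPM by exonic length gave reads that were whole, within 0.02, for 97.95% to 98.67% of low values (30 reads or fewer) per sample. These recovered reads set the depth and a floor of 3 reads per sample, and cover counting error only.

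The main test was limma (version 3.58.1, R 4.3.3; linear model, empirical Bayes with a mean trend) applied to log2(TPM + 1). Genes entered when their mean over the samples compared was 0.5 TPM or more, and those with a Benjamini-Hochberg adjusted p under 0.05 were called. Single members also had a two-sided exact permutation test. The code was tested on simulated data with known changes. Other versions were Python 3.11.15, numpy 2.4.6, pandas 2.3.3 and matplotlib 3.10.9. The members and lists were chosen with earlier results of these data known. All 10 members are named, and of each pathway list the genes called or otherwise up to 4 of the most abundant. Other named genes, and the samples singled out, were chosen after their values were seen. Same-numbered GKO and WT tumours deviated together (r of 0.101, 0.120 and 0.197), and a block for the number left that comparison at 0 calls among members. Alternatives were a pseudocount of 0.1, no filter, a filter at 5 TPM, centring on the median, one fit of all 18 samples, the block, voom on recovered reads, averaging WT tumours 1 and 2, and leaving out single samples.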

Additional observations from a re-analysis of the deposited data

How the results depend on the processing

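Over both genotypes the 5 called members kept their direction and their call in every alternative in which they passed the filter, and 7 members were called with median centring, with all 18 samples in one fit and with voom on recovered reads, beside 3099, 3840 and 2995 genes in place of 2829. A filter at 5 TPM left fewer members to test, and 2 were called over both genotypes, 2 in WT and 2 in GKO, beside 1662, 482 and 1047 genes. Without a filter 3 were called in WT, where the calls over all genes went from 592 to 297, and 1 in GKO, where they went from 1652 to 589, and with WT tumours 1 and 2 averaged 3 in WT. Across all alternatives that left out no sample, called members ran from 2 to 7 in WT and from 1 to 5 in GKO. Over all genes these alternatives gave 185 to 1649 calls in WT and 589 to 2722 in GKO. Leaving out single samples gave between 1 and 5 called members in WT, 0 and 5 in GKO, and 5 and 8 over both genotypes, the 8 without GKO tumour 3, while over all genes it gave 163 to 1363, 229 to 1567 and 1867 to 3797 calls. The cause was not tested. In the other 6 comparisons 0 members were called in every alternative. The log2 fold change of Rnf43 in GKO ran from -0.88 to 0.0227 without single samples and was positive without GKO tumour 1. Between GKO and WT tumours, uncalled differences changed sign: Tbx3 was -0.0105 with a pseudocount of 0.1 and -0.25 with voom, and Sp5 was -0.32 with voom. Without single tumours these differences ran from -0.35 to 0.71 for Tbx3, -0.10 to 0.68 for Sp5, -0.0851 to 0.24 for Nkd1, -0.0557 to 0.30 for Znrf3 and -0.88 to 0.38 for Notum. The exact permutation p of Rnf43 reached 0.075 and that of Znrf3 0.065 without single samples.

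For tumours and non-tumours the labels do not say that a replicate number marks a mouse, and same-numbered samples deviated together with r between -0.01 and 0.25, so they were not paired. With a replicate block 5 members were called in WT, 5 in GKO and 5 over both genotypes, and 0 in the other 6 comparisons, so the block changed no count of members called. Over all genes it lowered the calls from 592 to 361 in WT, 1652 to 1436 in GKO, 2829 to 2370 over both genotypes and 3 to 0 between GKO and WT tumours. Depth limits Lgr5, Lef1, Sp5 and Axin2, which had 3 reads or fewer in some tumours.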
